A study of Canis lupus familiaris with 5 samples.

Results

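A set of 165 gene models that were near silent in dog skin fibroblasts, and were transcribed both in induced neural stem cell-like cells (iNSLCs) and in every induced pluripotent stem cell (iPSC) clone of the same dog, is described here. They were chosen from measured levels among the 32220 gene models of the count tables. Levels are counts divided by the library total and scaled to a total of 1000000 (CPM). A member had less than 1 CPM in fibroblasts and 10 CPM or more in iNSLCs and in each iPSC clone. Mitochondrial models were left out, and so were 2 models that met these limits but lay between 32.5 and 32.75 Mb of chromosome 5 (CanFam3.1). The same exclusion for 46.2 to 46.4 Mb of chromosome 18 removed 0 models.

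All cells came from 1 adult dog, named K9 by the study, and the groups differed as follows. The fibroblast library (n = 1) came from untransfected ear skin cells at passage 1. The iNSLC library (n = 1) came from passage 2 cells of the dome-shaped primary colonies that grew after transfection of the fibroblasts with EP-B, a set of episomal vectors that carry reprogramming factors, and culture in NSM, a medium first used for putative naive-state stem cells. The iPSC libraries (n = 3) came from separate clones that emerged from such cells in a conventional embryonic stem cell medium, at passage 9 for iPSC 1 and passage 8 for iPSC 2 and iPSC 3. The iNSLC label shares its number with iPSC 1 alone, and whether that clone came from the sequenced culture is a point not given in the sources used here. Passage and medium thus went with the group in every library and cannot be told apart from it. Vector content may also have gone with the group and cannot be told apart either. By genomic PCR the study found the episomal vectors gone from its dog iPSC clones after several passages. No such check of the dog iNSLCs is given in the sources used here. The clones are replicates of 1 animal, so their spread is a spread between clones and not between dogs, and the lone fibroblast and iNSLC libraries carry no replicate error. Reads from vectors, or from mouse feeder cells such as the study used during induction, were not separated from dog reads. Libraries held from 11699186 counts (iNSLC) to 34317091 counts (iPSC 3).

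As background, a fibroblast keeps most genes of other lineages closed, and reprogramming factors open many of them while the fibroblast programme is shut down. Pluripotent cells and neural progenitors are known to share part of their transcription programme, including some of the factors used for reprogramming, and they differ in the genes that hold each state. Genes that are off at the start and on at both later stages can belong to the shared programme or to cell division and culture. Where vectors remain in the cells, they can also belong to the vectors themselves. Levels alone do not assign them.

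The tables name genes by Ensembl ID with no symbol, and 0 of the 32220 IDs had a match in the gene table at hand. Members are therefore given by their CanFam3.1 position and structure, with the ID for the pair that rose most and the pair that fell most after the iNSLC stage. What single members encode, and whether the labelled cell types carried their defining markers, was not analysed here.

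The rule kept 41.9% of the 394 nuclear models (both regions left out) that were under 1 CPM in fibroblasts and at 10 CPM or more in iNSLCs. Seen from the other end, 56.7% of the 291 models that were under 1 CPM in fibroblasts and at 10 CPM or more in every iPSC clone were already at that level in iNSLCs. The 229 models that reached 10 CPM in iNSLCs and were not kept had a median of 17.4 CPM there and a median of 3.88 CPM for the iPSC mean. Of them, 36 (15.7%) were under 1 CPM in all 3 clones, so most of those that failed the rule were still counted in some clone. The 126 models that reached 10 CPM only in iPSCs had a median of 4.27 CPM in iNSLCs and 24.3 CPM in iPSCs, and 15 of them (11.9%) were under 1 CPM in iNSLCs.

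Member genes took 0.00491% of all counts in fibroblasts (95% Clopper-Pearson interval 0.00467 to 0.00515) and 0.889% in iNSLCs (0.884 to 0.894). In iPSCs they took 1.86%, 1.62% and 1.59% of the counts of clones 1, 2 and 3, with a mean of 1.69% ± 0.145 (SD, n = 3). All clones lay above the iNSLC library. These intervals cover counting error only and take each count as a separate read. Even values were frequent among low counts, and if both mates of a pair were counted the intervals are too narrow. As the samples are bulk cultures, more cells that use a gene and more RNA per cell cannot be told apart in these values. The median member had 0.240 CPM in fibroblasts, 28.1 CPM in iNSLCs, and 54.3, 42.8 and 47.6 CPM in the clones in order. Members at 100 CPM or more numbered 21 in iNSLCs and 52, 36 and 42 in the clones. The 10 most abundant of the 165 members in each library held 30.8% of the members' counts in iNSLCs and 32.8%, 41.5% and 32.9% in the clones. The larger part of the sum thus lay outside these 10, least so in iPSC 2.

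**Figure D1:**
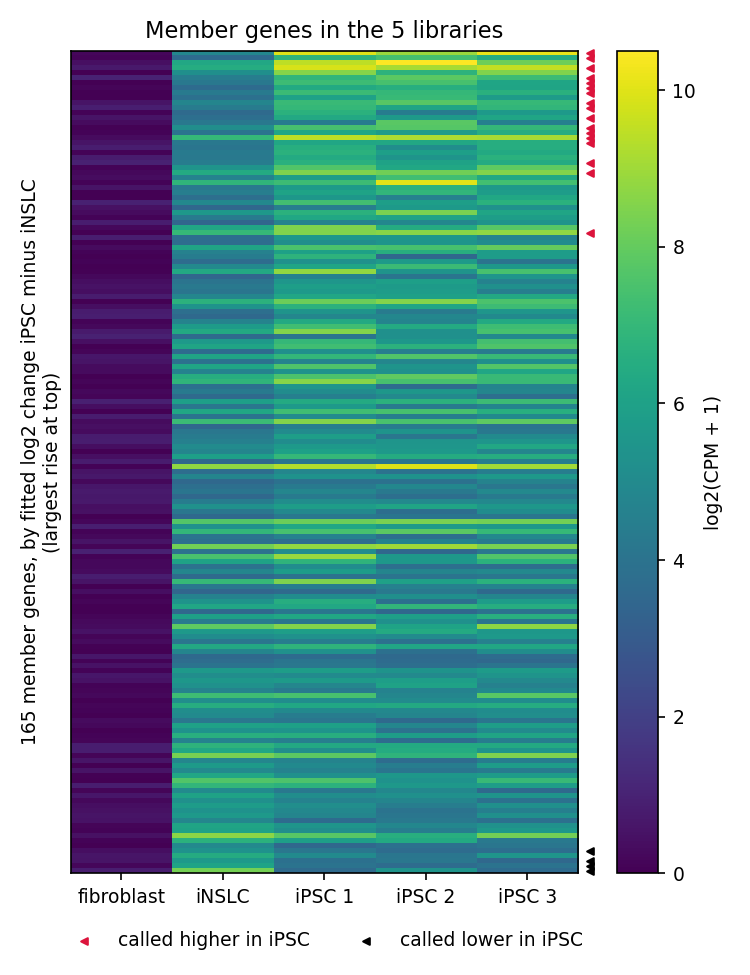
Each row is 1 of the 165 members and each column 1 library, with colour giving log2(CPM + 1), and rows run from the largest fitted rise to the largest fitted fall from iNSLC to iPSC. Triangles on the right mark the 17 members called higher and the 4 called lower in iPSCs (edgeR, adjusted p under 0.05), and the dark first column is the fibroblast level that the rule set under 1 CPM.

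Fibroblast values were low, as the rule required, though most members had some counts there. In that library 28 members had 0 counts, 24 had 1 or 2 counts, 43 had 3 to 9 and 70 had 10 or more, with a highest count of 33. With libraries under 3 counts set to 3 counts, the lowest ratio of iNSLCs to fibroblasts was 12.3 and the median 137, and the lowest ratio of the iPSC mean to fibroblasts was 19.2 and the median 268. Both contrasts were used to choose the members, so these ratios are a description. In the edgeR fit all 165 members were called higher in iPSCs than in fibroblasts, beside 13.7% of all genes tested called higher and 28.0% called in either direction, and nothing is read from that count. The 28 members without a fibroblast count ranged from 10.7 to 201 CPM in iNSLCs and from 13.6 to 396 CPM for the iPSC mean. The highest of them in iNSLCs was the model at chromosome 20, 43944251 to 43970876, with 201 CPM in iNSLCs and 186, 39.8 and 134 CPM in the clones. Its iNSLC level was at least 2230-fold higher than the 3-count floor of the fibroblast library.

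Levels can be compared between genes once counts are divided by exon length. On that scale (CPM per kb) the median member stood at percentile 50.1 of all nuclear models in fibroblasts, where many models have no reads, at 79.1 in iNSLCs and at 83.3, 81.9 and 83.6 in the clones. The member with the highest mean over iNSLCs and iPSCs was a short model of 4 exon blocks on chromosome 2 (73615729 to 73628211). It had 0.194 CPM per kb in fibroblasts, 491 in iNSLCs, and 716, 833 and 541 in the clones, so iNSLCs already held a level within 2-fold of every clone. The next, on chromosome 12 (861374 to 866099), had 107 CPM per kb in iNSLCs and 135, 962 and 148 in the clones, a rank that rested on iPSC 2. The member on the X chromosome at 55283127 to 55287465 had 48.6 CPM per kb in iNSLCs and 502, 304 and 403 in the clones. A single-exon model on chromosome 34 (14853054 to 14854028) followed with 87.0 CPM per kb in iNSLCs and 362, 310 and 390 in the clones. These top members fell into different patterns, from a high level at both stages to a further rise in iPSCs. The other 6 of the first 10 had mean levels from 217 CPM per kb for the model at chromosome 24, 22096400 to 22121962, down to 121 CPM per kb for that at chromosome 29, 27055752 to 27105745. They included the shortest member, a model of 237 bp on chromosome 17 (36935358 to 36935594) with 15.7 CPM in iNSLCs and 50.4, 54.6 and 21.8 CPM in the clones. The member with the most CPM in iNSLCs, not divided by length, was the model at chromosome 16, 24259480 to 24306309, with 0.0601 CPM in fibroblasts (2 counts), 428 CPM in iNSLCs, and 628, 997 and 530 CPM in the clones.

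The rule set a floor for iNSLCs and iPSCs without comparing them, so their difference was tested. The test asked whether genes switched on by the iNSLC stage were at their iPSC level there. The clone floor had already removed 229 of the 394 models under 1 CPM in fibroblasts and at 10 CPM or more in iNSLCs. The iNSLC floor had likewise left out 126 models that reached 10 CPM only in iPSCs. Both cuts bear on the shares of rises and falls and on the medians below, which are a description. The like losses among comparison genes were not counted. Of the members, 17 rose and 4 fell from iNSLCs to iPSCs and 144 passed the test in neither direction (edgeR quasi-likelihood test across 17479 genes, Benjamini-Hochberg adjusted p under 0.05). The 21 calls were 12.7% of the members, where 11.2% of all genes tested were called. Rises made up 10.3% of the members beside 3.51% of all genes tested, and falls 2.42% beside 7.71%. A closer set for comparison is the 7341 nuclear genes that met the same 10 CPM floor in iNSLCs and every clone and were at 1 CPM or more in fibroblasts. Of these comparison genes 7.70% were called, 3.38% higher and 4.32% lower. That order turned with library size only (5.45% higher and 3.43% lower), with DESeq2 (8.72% and 6.99%) and narrowly without iPSC 2 (7.33% and 7.25%). Among members rises outnumbered falls in each of these, 19 to 3, 34 to 5 and 39 to 6. The fitted log2 fold change of iPSCs against iNSLCs had a median of 0.58 over the members (quartiles −0.14 and 1.36), 0.23 over comparison genes (−0.33 and 0.72) and 0.20 over all genes tested. It was above 0 in 119 members (72.1%) and in 61.0% of comparison genes. The number of calls turned on single clones, with 10 members called without iPSC 1, 45 without iPSC 2 and 0 without iPSC 3. Calls among all genes tested moved likewise. They were 8.35% without iPSC 1 (6.06% of members) and 24.3% without iPSC 2 (27.3% of members). In the edgeR fit without iPSC 3, 0 of all genes tested were called. With all clones, 50 members had an unadjusted edgeR p under 0.05, beside 5451 of all 17479 genes tested.

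**Figure D2:**
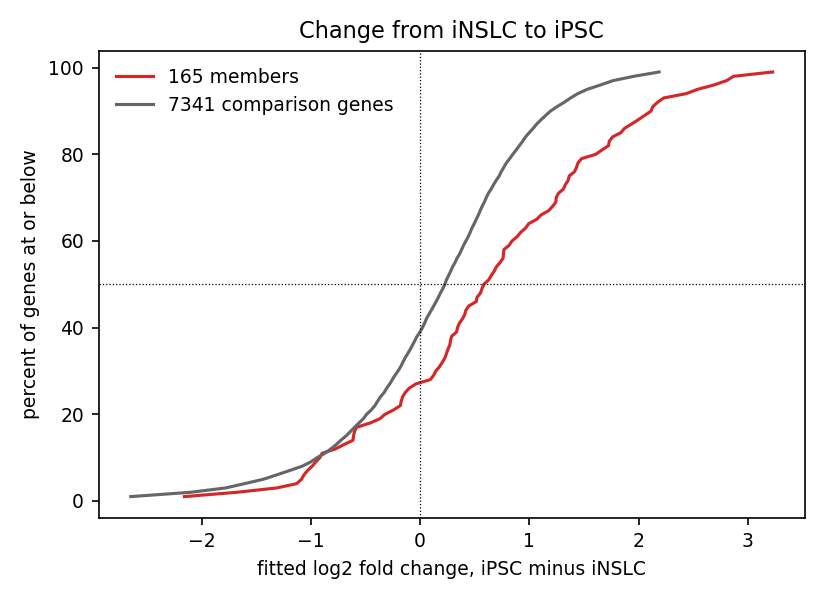
Cumulative distribution of the fitted log2 fold change, iPSC minus iNSLC (x axis), as the percent of genes at or below each value (y axis), for the 165 members in red and the 7341 comparison genes in grey. The member curve lies to the right over most of its length and crosses the 50% line at 0.58, the comparison curve at 0.23.

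The floor of 10 CPM limits how far a member can fall, and more so where iNSLCs were low. Among the 61 members at 10 to under 20 CPM in iNSLCs, 8 rose and 0 fell, with a median log2 fold change of 0.93, and among the 1182 comparison genes of that range 77 rose and 0 fell, with a median of 0.64. Among the 104 members at 20 CPM or more, 9 rose and 4 fell, with a median of 0.29. The 6159 comparison genes of that range had a median of 0.12, and 171 of them (2.78%) rose and 317 (5.15%) fell. Member medians of the log2 fold change were therefore above those of comparison genes in both ranges of iNSLC level, and no test of that difference was made. Within the ranges members still had the lower median iNSLC level. It was 13.8 against 15.0 CPM in the low range and 51.4 against 57.3 CPM in the high one. The part of level in the difference was not tested.

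Plain ratios of CPM, with no scaling beyond the library total, also leaned towards iPSCs. The iPSC mean was at least 4 times the iNSLC level in 25 members (15.2%), against 2.59% of comparison genes and 15.3% of all genes tested, which also hold genes far under the floor. It was 2 to 4 times higher in 41 (24.8% against 17.9% of comparison genes) and within 2-fold in 93 (56.4% against 72.3%). It was 2 to 4 times lower in 4 and at least 4 times lower in 2 (1.21%, beside 1.80% of comparison genes and 11.1% of all genes tested). Most members thus had an iPSC mean within 2-fold of the 1 iNSLC library. Ratios of the iPSC mean to iNSLCs ran from 0.0697 to 31.1 with a median of 1.68. The iNSLC level lay below all 3 clones in 95 members (57.6%, beside 53.5% of comparison genes and 46.4% of all genes tested) and above all 3 in 30 (18.2%, beside 21.4% and 30.1%). In the other 40 it lay among the clones. With TMM scaling, as in the fit, the iNSLC level was below all clones in 85 members and above all in 33. Of the 25 members at least 4 times higher, 16 were called, a description only, as the same change picked them. The 9 that were not had edgeR adjusted p from 0.0507 to 0.382 and a coefficient of variation (CV, the SD as a percent of the mean) over clones of 27.0% to 130%.

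**Figure D3:**
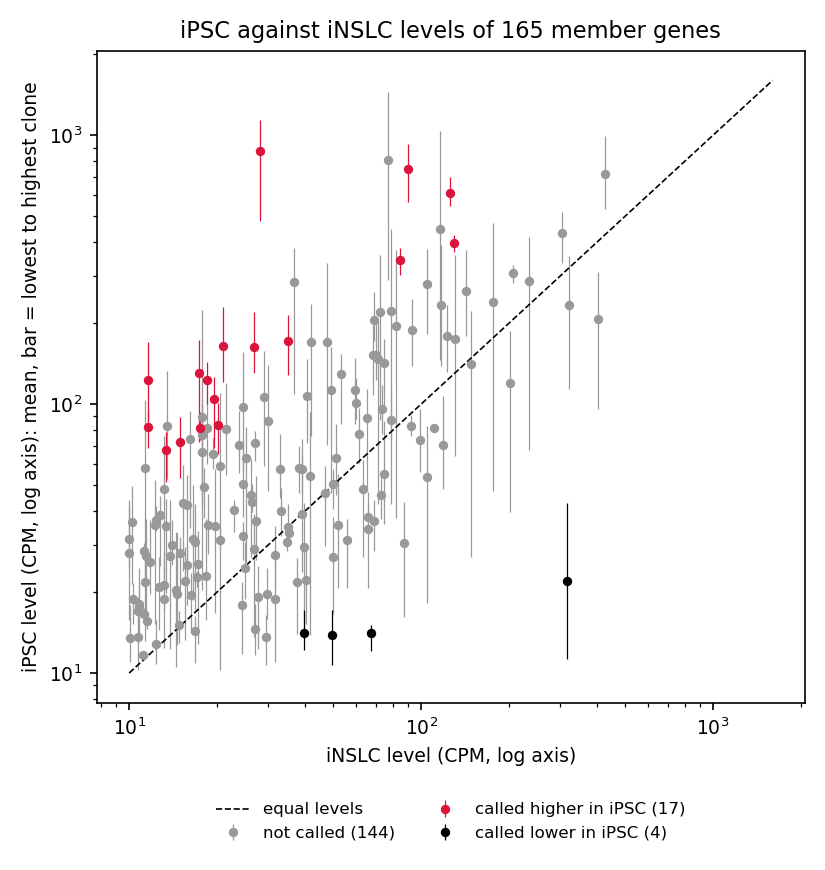
Level in iNSLCs (x axis, CPM, log scale) against the mean of the 3 iPSC clones (y axis, CPM, log scale) for the 165 members, with bars from the lowest to the highest clone and a dashed line of equal levels. The bars of called members do not reach the line, and 93 members have a mean within 2-fold of it.

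The largest called rise was that of ENSCAFG00000009059 on chromosome 27 (6756994 to 6787846), a model of 54 exon blocks. It had 0.150 CPM in fibroblasts, 28.1 CPM in iNSLCs and 1005, 478 and 1138 CPM in the clones, and its log2 fold change was 4.80 ± 0.727 (SE, edgeR adjusted p = 0.0172). The iNSLC library was low for this gene and all clones were high. ENSCAFG00000011745 on chromosome 5 (12493152 to 12650767) had 0.0601 CPM in fibroblasts, 11.6 CPM in iNSLCs and 112, 170 and 87.6 CPM in the clones (log2 fold change 3.23 ± 0.532, edgeR adjusted p = 0.0205). It had passed the iNSLC floor narrowly, and each clone was well above it.

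The third called rise was on the X chromosome (55283127 to 55287465), which went from 0.631 CPM (fibroblasts) and 90.1 CPM (iNSLCs) to 930, 564 and 748 CPM in the clones (2.89 ± 0.463, edgeR adjusted p = 0.0194). A single-exon model on chromosome 6 (38170608 to 38171273) had 0.992 CPM, 21.0 CPM and then 120, 230 and 145 CPM in the same order (2.80 ± 0.509, edgeR adjusted p = 0.0260). The model at chromosome 29, 19204223 to 19220111, had no fibroblast count, 17.4 CPM in iNSLCs and 145, 173 and 72.1 CPM in the clones (2.73 ± 0.606, edgeR adjusted p = 0.0420). In all 5 of these genes the lowest clone was above the iNSLC library. The other 12 called rises lay on 12 chromosomes, with log2 fold changes from 1.44 to 2.65 and edgeR adjusted p from 0.0188 to 0.0465. The smallest of them, at chromosome 24, 37941702 to 37959468, had no fibroblast count, 130 CPM in iNSLCs and 367, 394 and 427 CPM in clones that hardly differed (1.44 ± 0.324, edgeR adjusted p = 0.0431). By contrast the model at chromosome 24, 22096400 to 22121962, had a fitted rise of 3.22 and was not called (edgeR adjusted p = 0.0860), with 76.9 CPM in iNSLCs and 695, 1450 and 290 CPM in the clones.

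The 4 called falls lay on 4 chromosomes. ENSCAFG00000008341 on chromosome 21 (36778268 to 37029192) had 0.811 CPM in fibroblasts, 315 CPM in iNSLCs and 11.3, 42.8 and 11.8 CPM in the clones, with a log2 fold change of −4.03 ± 0.720 (edgeR adjusted p = 0.0253). It was among the most abundant members in iNSLCs, and iPSC 2 kept the most of it. ENSCAFG00000008945 on chromosome 28 (10349670 to 10519332) had 0.150 CPM in fibroblasts, 67.1 CPM in iNSLCs and 15.1, 12.0 and 15.1 CPM in the clones (−2.41 ± 0.354, edgeR adjusted p = 0.0161), the lowest adjusted p of all members. The model at chromosome 34, 19497922 to 19588283, had 49.7 CPM in iNSLCs and 13.7, 17.1 and 10.7 CPM in the clones (−2.01 ± 0.390, edgeR adjusted p = 0.0308). The last, at chromosome 25, 32463497 to 32469184, had 39.7 CPM in iNSLCs and 17.1, 12.2 and 12.8 CPM in the clones (−1.66 ± 0.394, edgeR adjusted p = 0.0492). All 4 ended close to the 10 CPM floor of the rule in at least 1 clone.

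**Figure D4:**
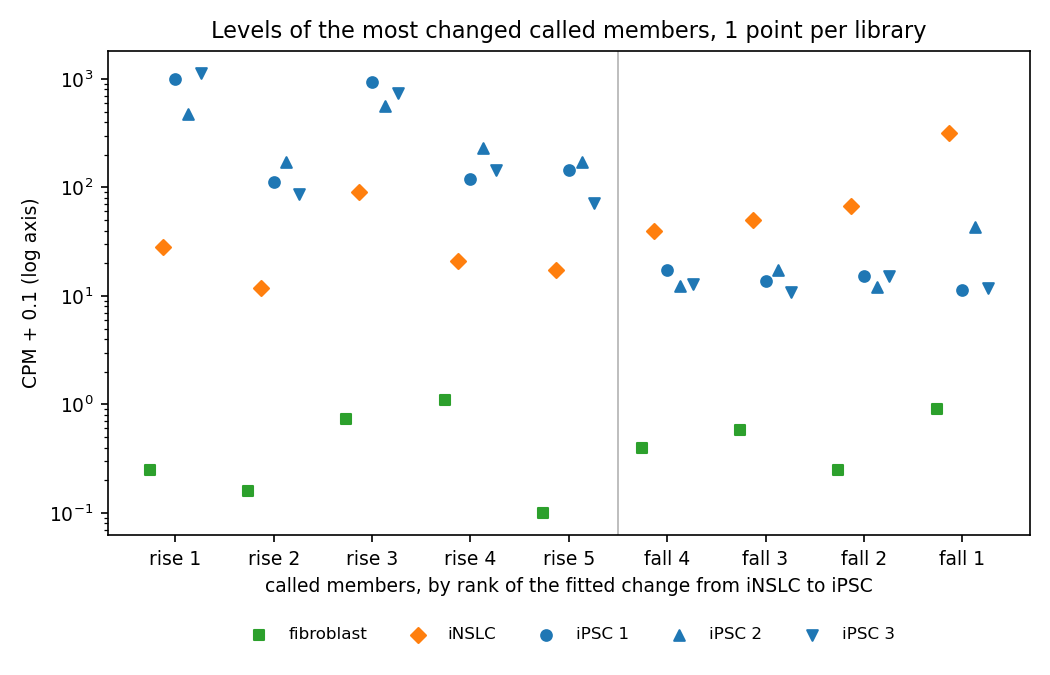
Level of the 5 called members with the largest fitted rise and the 4 with a called fall (x axis, ordered by fitted change) in each library (y axis, CPM + 0.1 on a log axis), 1 point per library. For each rise the iNSLC point lies between the fibroblast point and all 3 clones, and for each fall it lies above all 3 clones.

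Members varied more over the 3 clones than genes of the same floor. With CPM scaled by TMM factors, the CV over clones had a median of 31.1% over members (quartiles 22.0% and 47.5%) and 18.9% over comparison genes (11.8% and 28.2%). The highest clone was at least 2 times the lowest in 70 members (42.4%) and 14.4% of comparison genes. It was at least 4 times the lowest in 17 members (10.3%), 1.01% of comparison genes and 16.7% of all genes tested, which include genes near 0. None of these 17 members was called between iNSLCs and iPSCs. The test takes its error from the clones, so a wide gap works against a call, and nothing is read from that count. Median levels were lower in members than in comparison genes, at 28.1 against 47.2 CPM in iNSLCs and 50.3 against 58.2 CPM for the iPSC mean, and the part of level in the wider spread was not tested.

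The wider spread sat mainly with iPSC 2. Without iPSC 2 the median CV over the remaining clones was 18.2% in members and 16.9% in comparison genes, whereas it was 35.8% and 18.7% without iPSC 1 and 30.4% and 11.5% without iPSC 3. Across members, which share libraries and are not independent, Spearman's rho was 0.916 between iPSC 1 and iPSC 3, 0.742 between iPSC 1 and iPSC 2 and 0.725 between iPSC 2 and iPSC 3. Across comparison genes it was 0.915, 0.931 and 0.881 for these pairs. Only for the pairs that hold iPSC 2 was rho lower over members than over comparison genes. iPSC 2 was the lowest clone in 84 members (50.9%, against 37.4% of comparison genes) and the highest in 51 (30.9% against 26.2%). In 14 of the 17 members with clones at least 4-fold apart (82.4%), iPSC 2 was the clone farther from the middle one, as it was in 51 of the 74 comparison genes with such a gap (68.9%). It was the lowest clone in 12 of the 17 and the highest in 5. Mitochondrial models took 6.05%, 9.99% and 6.79% of the counts of the clones in order, so iPSC 2 also differed in that measure, whose part in the spread was not tested.

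**Figure D5:**
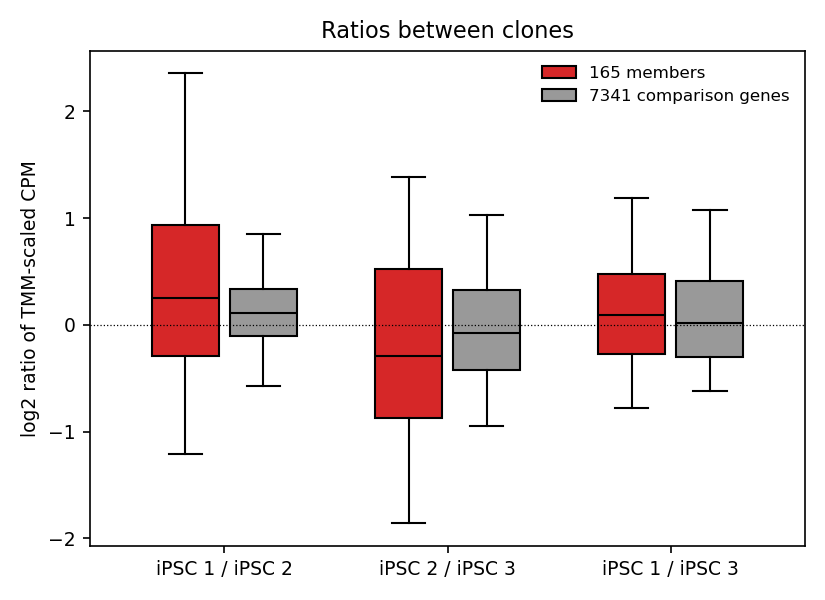
Log2 ratio of TMM-scaled CPM between each pair of iPSC clones (y axis) for the 165 members in red and the 7341 comparison genes in grey, with boxes from the lower to the upper quartile, a line at the median and whiskers from the 5th to the 95th percentile. Member boxes are wide for the pairs that hold iPSC 2 (quartiles −0.29 and 0.93 for iPSC 1 over iPSC 2), and close to the grey ones for iPSC 1 over iPSC 3 (quartiles −0.27 and 0.48).

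The most variable members show both directions of this. On chromosome 13 (40949 to 126849), a member had 17.7 CPM in iNSLCs and 20.3, 225 and 22.9 CPM in the clones, a CV of 130%. Next came the chromosome 12 member at 861374 to 866099, with 116 CPM in iNSLCs and 146, 1042 and 160 CPM in the clones (CV 113%). In both, iPSC 1 and iPSC 3 stayed near the iNSLC level and iPSC 2 stood alone above it. The other 3 of the 5 highest had iPSC 2 as the lowest clone. They were the models at chromosome 36, 13915632 to 14070685 (79.2 CPM in iNSLCs and 450, 42.7 and 172 CPM in the clones), chromosome 7, 66503999 to 66625062 (131 CPM and 358, 63.9 and 103 CPM), and chromosome 1, 13335903 to 13358107 (176 CPM and 473, 47.4 and 202 CPM). In these genes iPSC 2 was below the iNSLC library and iPSC 1 well above it.

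At the other end stood members that the clones shared closely. The smallest CV, 1.31%, was that of the model at chromosome 3, 71010353 to 71082477, with 111 CPM in iNSLCs and 80.3, 82.6 and 81.1 CPM in the clones. Its exons overlap another model, so its reads may be split. A single-exon X chromosome model at 110362124 to 110363458 had no fibroblast count, 35.2 CPM in iNSLCs and 33.4, 32.4 and 33.4 CPM in the clones, nearly the same in all 4 libraries. The model at chromosome 18, 44061113 to 44107271, also without a fibroblast count, had 11.2 CPM in iNSLCs and 17.4, 16.1 and 16.4 CPM in the clones. Low but even levels were also seen at chromosome 26, 17340855 to 17366475, with 11.1 CPM in iNSLCs and 11.8, 11.0 and 12.0 CPM in the clones. An abundant and even member lay at chromosome 17, 20895130 to 20950130, with 206 CPM in iNSLCs and 282, 330 and 308 CPM in the clones. None of these 5 was called between iNSLCs and iPSCs, and with so few genes no share is read from that.

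Across members the order of levels in iNSLCs was only partly that of iPSCs. Spearman's rho of the iNSLC level with clones 1, 2 and 3 was 0.592, 0.482 and 0.590 over members and 0.750, 0.703 and 0.695 over comparison genes. The range of member levels is cut by the rule at 10 CPM, and the same cut was made for comparison genes. Upper levels were not matched between the sets, and the part of range in the lower rho was not tested. The fibroblast level, under 1 CPM throughout, had a rho of −0.152 with the iNSLC level.

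The rule used no gene structure, and position only to leave out the mitochondrial models and the 2 regions named above. Members were long gene models, with a median genomic span of 44545 bp, against 25617 bp for comparison genes, 26700 bp for the models not kept in iPSCs, 17360.5 bp for those that reached 10 CPM only in iPSCs and 8017 bp for all nuclear models. The span was 100 kb or more in 51 members (30.9%), against 13.9% of comparison genes and 16.7% of the iPSC-only models. The share among models not kept was nearer, at 25.8%. Median exon length was 3561 bp in members and 2845 bp in comparison genes, and the median number of exon blocks was 12 and 11, so the difference was larger in span than in exon length or exon number. The longest member was the model at chromosome 34, 2521662 to 3439858 (918197 bp), with 63.0 CPM in iNSLCs and 62.2, 27.1 and 55.8 CPM in the clones. Among the 51 members of 100 kb or more, 5 (9.80%) rose and 2 (3.92%) fell, where 1.57% of comparison genes of that span rose and 6.48% fell. Among the other 114, 12 (10.5%) rose and 2 (1.75%) fell, beside 3.67% and 3.97% of comparison genes. The floor of the rule is in CPM, not divided by length, for all of these sets, and its part in the lengths was not tested.

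Members were spread over 38 of the 39 nuclear chromosomes, with 12 on chromosome 9, 11 on the X chromosome and 8 each on chromosomes 1, 2 and 6. The X chromosome held 6.67% of members, 3.24% of comparison genes, 8.73% of the iPSC-only models and 4.35% of all nuclear models. Of its 11 members 2 rose and 0 fell, and of its 238 comparison genes 7 (2.94%) rose and 10 (4.20%) fell. The fitted log2 fold changes of the 11 ran from −1.15 to 2.89 with a median of 1.73, beside 0.17 for these comparison genes. With so few members no share is read from the calls. The other rise there, at 107822220 to 107833569, had no fibroblast count, 18.5 CPM in iNSLCs and 143, 125 and 99.8 CPM in the clones. Exons of 13 members overlapped those of another model, 1 of them on the same strand. None of these 13 was called. With so few members, and 11.2% of all genes tested called, nothing is read from that. Reads of such models may be shared where the counting ignored strand, a setting not given in the sources used here.

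Few members were neighbours. Within 100 kb of each other lay 3 pairs, with 0 other models between the partners, and in each pair the genes were on opposite strands. On chromosome 22, the model at 49931510 to 49939178 had 12.2 CPM in iNSLCs and 38.6, 52.3 and 15.2 CPM in the clones, and its partner 8237 bp away, at 49947416 to 49951896, had 26.8 CPM in iNSLCs and 136, 220 and 131 CPM. Both had iPSC 2 as the highest clone, and the partner rose (log2 fold change 2.43, edgeR adjusted p = 0.0288). The called fall at chromosome 25, 32463497 to 32469184, had a partner 24292 bp away (32493477 to 32498570) with 148 CPM in iNSLCs and 172, 27.1 and 222 CPM in the clones, which passed the test in neither direction (edgeR adjusted p = 0.893). On chromosome 5, the models at 9001668 to 9044370 and 9053925 to 9242669 lay 9554 bp apart. The first had 61.4 CPM in iNSLCs and 75.9, 60.3 and 96.9 CPM in the clones, and the second 49.0 CPM and 128, 46.6 and 164 CPM, with iPSC 2 the lowest clone for both.

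At the edges of the rule the values were continuous. The member closest to the fibroblast ceiling, the chromosome 6 model at 38170608 to 38171273, had 33 counts (0.992 CPM), and the nearest model outside, at chromosome 30, 20946976 to 21063583, had 34 counts (1.02 CPM) and 90.2 CPM in iNSLCs. The lowest members in iNSLCs, at chromosome 24, 47061022 to 47089710, and chromosome 9, 23608716 to 23668744, tied at 117 counts (10.0007 CPM), and the nearest model outside, at chromosome 36, 9710116 to 9824676, had 116 counts (9.92 CPM). The lowest value in any clone, 10.3 CPM in iPSC 2, was shared by the members at chromosome 15, 54634294 to 54708226 (110 and 55.7 CPM in iPSC 1 and iPSC 3) and chromosome 9, 5984115 to 5992628. The nearest model outside, at chromosome 37, 14996852 to 15164336, had 9.85 CPM in iPSC 3.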

How the data were processed

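RNA sequencing counts of 1 fibroblast, 1 iNSLC and 3 iPSC libraries were used. The authors deposited raw counts of reads per gene model, and the submitters' processing notes name Trim Galore 0.4.0, STAR 2.5.3a, featureCounts 1.5.2 and CanFam3.1, with strand and multi-mapping settings not given in the sources used here. Even values made up 59.6% to 74.0% of counts from 1 to 10, as would arise if both mates of a pair were counted, so halved counts were tried.

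CPM was the count divided by the column total. A floor of 3 counts was 0.0874 to 0.256 CPM. Groups were compared by edgeR 4.0.16 (quasi-likelihood, R 4.3.3) in 1 fit of 3 groups, with TMM scaling and the default filter for low counts. Adjusted p (Benjamini-Hochberg over 17479 genes) under 0.05 was a call. Its 2 residual degrees of freedom came from the clones, and the lone libraries were assumed to vary like them. Alternatives were DESeq2 1.42.0, limma-voom (limma 3.58.1), other scalings and filters, a fit without fibroblasts, other limits of the rule, and leaving out each clone. Coordinates, exon blocks and lengths come from the tables, with overlapping exons merged.

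Members and lists were chosen with earlier results of these data known. The rule for named genes took the 10 members highest in mean CPM per kb, the 5 largest called rises and falls, and the 5 highest and lowest in CV. The gene table at hand (UU_Cfam_GSD_1.0) pairs no Ensembl ID with a symbol, so only 4 IDs are given, and marker lists were not analysed.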

Additional observations from a re-analysis of the deposited data

How the results depend on the processing

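Limits of the rule set the number of members, 165 as reported. It was 52 with fewer than 3 fibroblast counts, 314 at a minimum of 5 CPM, 84 at 20 CPM, and 167 to 194 when a clone was left out. DESeq2 called 39 members between iPSCs and iNSLCs (34 higher and 5 lower), against 21 (17 and 4). Its calls were 23.6% of members, beside 14.4% of all genes in that fit. In edgeR, 0 members had an adjusted p under 0.01 (0 higher, 0 lower). An unadjusted edgeR p under 0.05 was held by 50 members, beside 5451 of all 17479 genes tested. Leaving out a clone gave 0 to 45 calls (0 to 39 higher and 0 to 6 lower), and the other alternatives 15 to 26. Among all genes tested, 0% to 24.3% were called when a clone was left out, and 9.73% to 12.7% in those others. The member share in those others ran from 9.09% with limma-voom, beside 9.73% of all genes, to 15.8% without the filter, beside 11.0%. None of the 21 called genes changed direction in any alternative. All 21 remained called with DESeq2, with its size factors, with halved counts, without fibroblasts, without the filter and without iPSC 2, and 20 with library size only, 15 with limma-voom, 10 without iPSC 1 and 0 without iPSC 3 (edgeR adjusted p 0.0747 to 0.126). The median log2 fold change of members was 0.75 with library size only, where that of all genes tested was 0.36 against 0.20, and 0.39 to 0.59 when a clone was left out. It exceeded that of comparison genes by 0.36, and by 0.23 to 0.40 when a clone was left out. The median CV was 18.2% to 35.8% when a clone was left out. Without mitochondrial models in the total, members took 0.912% of counts in iNSLCs and 1.80% in iPSC 2, and without the most abundant member 0.846% in iNSLCs. Where these values moved and the construction of the alternative does not show why, the cause was not tested. No paired analysis was possible because the groups compared share fewer than 2 replicate numbers. The iNSLC library was the shallowest, and with 1 library its own spread is unknown.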
